A study of Mus musculus with 6 samples.

Results

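Penk, Pros1, Tg, Nrgn, Efna5, Asb2 and Tent5a are 7 genes whose intensity was higher in Th9 cells than in Th1 and in Th17 cells on Illumina mouse bead arrays. They were chosen by that pattern, that is, by the Th9 intensity against the Th1 and the Th17 intensity on these same arrays, so the Th9 differences below describe the choice and carry no test. All probes carrying their current or earlier symbols were taken, 9 of the 45281 on the array, and 9 of these 9 were among the 22460 probes kept as above background on at least 2 arrays. T helper cells are CD4 lymphocytes that steer other immune cells by secreted cytokines, and Th9, Th1 and Th17 are subsets named after interleukin 9, the first helper programme described, and interleukin 17. Cells of each kind had been transferred into mice carrying a tumour and were recovered from the spleen on day 12 by sorting for CD4 and for CD45.1, a surface allele that marks transferred cells. All 6 arrays, 2 per kind, share the C57BL/6 background, the spleen as tissue and that sort. Genotype, age, tumour and the culture that made each kind are not given in the sources used here. The labels call the other array of a kind a repeat without saying what was repeated, so the spread between arrays may be technical.

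These genes are best known outside the T helper lineage. Penk encodes proenkephalin, a secretory precursor that proprotein convertases and carboxypeptidases cut into the opioid peptides called enkephalins, and it is known to be expressed by activated and regulatory T cells as well as by neurons. Pros1 encodes protein S, a vitamin K-dependent anticoagulant that also binds the TAM receptor kinases Tyro3 and Mertk. Tg encodes thyroglobulin, the scaffold on which the thyroid makes its hormones. Efna5 encodes ephrin-A5, a ligand anchored in the membrane that binds Eph receptors, and Nrgn encodes neurogranin, a calmodulin-binding protein of neurons. Asb2 encodes the substrate-binding subunit of a cullin 5 ubiquitin ligase that degrades filamins, and Tent5a encodes a cytoplasmic poly(A) polymerase that lengthens mRNA tails.

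The annotation puts the 7 genes on 6 chromosomes. Nrgn and Tent5a share one, with 1093 annotated genes between them, so none of the 7 is a neighbour of another (RefSeq, GRCm38.p6). The only protein-coding gene that overlaps a member is Sla, which lies within Tg. RefSeq promoter sequence was matched for 5 of the 7, namely Pros1, Nrgn, Efna5, Asb2 and Tent5a. The 250 bases before the start farthest upstream are shown for 3 of them (build GRCm38.p6), for Pros1 and Tent5a because they hold a searched motif and for Asb2 as the member whose level also differed most between Th17 and Th1. They are Pros1 at chr16:62854057-62854306 on the plus strand, Tent5a at chr9:85327151-85327400 on the minus strand and Asb2 at chr12:103356002-103356251 on the minus strand, each written 5′ to 3′ with motif matches in capitals.
Pros1: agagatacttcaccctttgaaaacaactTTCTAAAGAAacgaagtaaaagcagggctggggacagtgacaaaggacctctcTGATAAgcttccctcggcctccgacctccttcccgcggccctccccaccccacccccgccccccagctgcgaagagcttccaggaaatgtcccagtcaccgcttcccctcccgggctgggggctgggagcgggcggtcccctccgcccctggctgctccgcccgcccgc
Tent5a: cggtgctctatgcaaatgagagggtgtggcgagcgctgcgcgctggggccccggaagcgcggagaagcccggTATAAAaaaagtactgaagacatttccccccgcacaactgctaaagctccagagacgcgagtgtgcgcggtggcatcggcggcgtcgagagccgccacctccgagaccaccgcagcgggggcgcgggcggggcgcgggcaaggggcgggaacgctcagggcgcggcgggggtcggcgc
Asb2: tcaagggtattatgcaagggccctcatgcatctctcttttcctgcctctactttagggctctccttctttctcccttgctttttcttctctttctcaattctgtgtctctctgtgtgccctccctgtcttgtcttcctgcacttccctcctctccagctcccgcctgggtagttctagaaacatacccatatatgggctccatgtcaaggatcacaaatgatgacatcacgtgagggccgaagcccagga
In Pros1 the capitals mark a match to the spacing of STAT6 sites, TTC and GAA on either side of 4 bases, beginning 222 bases before the start and a GATA match beginning 169 bases before it, which do not overlap. The GATA search took AGATAA or AGATAG, and also TGATAA or TGATAG. In Tent5a they mark TATAAA, 178 bases before the start, and the Asb2 window held no match. Both strands were searched. Among 27025 mouse promoters of that length, 27.1% held a GATA match, 5.9% the STAT6 spacing and 13% TATAAA. The AP-1 site TGANTCA (6.9% of promoters), the enkephalin CRE-like site TGCGTCA (1.8%), the CRE half-site TGACGT (6.5%) and the NFAT site TGGAAAA (6.0%) had no match in the 5 windows. G and C made up 64.4% of the Pros1 window, 70% of that of Tent5a and 50% of that of Asb2, against a median of 52% over all promoters.

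The deposited values are linear intensities centred near 0. A value counted as above background when it exceeded a noise threshold of 5.84 to 6.95 units set on each array from its values below 0, which 41 to 45.2% of probes did. The 6 measured T cell markers, with Cd3e, Cd3d, Cd3g and Thy1 making up most of the sum, had summed intensities of 17523.9 to 19118.1 in Th9, 16845.2 to 20591.5 in Th1 and 24674.9 to 26058.7 in Th17. They did not run with the members, since 2 of the 6 (Cd3e and Cd3d) were lower in Th9 than in Th17, 1 (Ptprc) was lower than in Th1, and 0 were higher. Cd4, for which the cells were sorted, was above background but dim, at 44 and 66.8 in Th9, 24.1 and 36.6 in Th1, against 85.8 and 94.1 in Th17. Of the CD8 T cell markers, Cd8a was above background on 0 arrays, whereas Cd8b1 read 1145 and 1257.7 in Th9, 1163.9 and 1043.3 in Th1, against 717.8 and 552.2 in Th17. Il9, the cytokine that names the Th9 subset, was above background on 0 of 6 arrays and is given no comparison. Of the Th9 and type 2 helper markers, 6 of 9 were measured. Summed intensities over all 9 were 3032.9 to 3505.7 in Th9, 384.5 to 473.8 in Th1 and 682.4 to 733.8 in Th17. Most of the Th9 sum came from Gata3 (1103.9 and 1234.5), Irf4 (890.5 and 1114.8) and Il4 (742.8 and 844.3). Of the 6 measured, 5 were higher in Th9 than in each other kind, whereas Il13 did not pass (0.08 and 0.21). Il5 and Spi1 were each above background on 1 Th9 array only. Every difference given below is one of log2 values to which 50 units had been added during the background step, and this understates the change of dim probes. In bulk RNA, fewer cells of a type and less RNA per cell cannot be told apart.

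Among the secreted products, Penk read 479.4 and 497.8 units on the Th9 arrays, 18.5 and 16.1 on the Th1 arrays, and 17.9 and 22.9 on the Th17 arrays. Penk was thus high in Th9, above background but dim in the other kinds, and its lower Th9 array stood 20.9 times above the brightest other array. The mean log2 level was 9.01 ± 0.11 in Th9, 6.35 ± 0.002 in Th1 and 6.29 ± 0.08 in Th17 (SD, n = 2 arrays each), a difference of 2.66 from Th1 and 2.72 from Th17. As a ratio of mean deposited intensities the same gap was 28.2 over Th1 and 24.0 over Th17, whereas the log2 scale with its offset gives 6.32-fold and 6.59-fold.

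Pros1 read 737.2 and 773.1 in Th9, 110.2 and 79.8 in Th1, against 91.2 and 75.1 in Th17. Protein S mRNA was therefore well above background in all 3 kinds, unlike that of Nrgn or Tg, and highest in Th9, by 2.14 over Th1 and 2.56 over Th17 on the log2 scale. Its level was 9.61 ± 0.09 in Th9, 7.47 ± 0.07 in Th1 and 7.05 ± 0.06 in Th17 (SD, n = 2).

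Tg read 233.9 and 359.5 in Th9, 14.5 and 10 in Th1, against 11.3 and 3.2 in Th17, where 1 of the 2 arrays was above background. Thyroglobulin mRNA was thus near background outside Th9, and its Th9 arrays differed from each other more than those of Penk or Pros1. The differences were 2.14 from Th1 and 2.31 from Th17. Sla, an adaptor that dampens T cell receptor signalling and lies within the Tg locus, read 1780.5 and 2026.5 in Th9, 1283.1 and 1242.8 in Th1, against 1882.5 and 1383 in Th17, so its arrays overlapped between Th9 and Th17 (log2 differences of 0.34 from Th1, limma adjusted p = 0.0908, and 0.39 from Th17, adjusted p = 0.0318; Sla was looked up after the values of Tg were seen).

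At the cell surface, the brighter Efna5 probe read 276.7 and 231.2 in Th9, 13.2 and 9 in Th1, against 18.4 and 22.2 in Th17. Ephrin-A5 mRNA was high in Th9 and just above background elsewhere, with log2 differences of 2.01 from Th1 and 1.92 from Th17. The other Efna5 probe read 16.2 and 4.7 in Th9, 1.3 and -4.2 in Th1, against 6.6 and 4.1 in Th17. That probe stayed near background on every array, its groups overlapped, and its differences were 0.26 and 0.11, so the 2 Efna5 probes disagree.

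Of the intracellular products, Nrgn read 248.2 and 213.3 in Th9, 2.6 and 6.5 in Th1, against 11.8 and 11.1 in Th17. Neurogranin mRNA was above background on 1 of the 2 Th1 arrays, so its ratio over Th1 rests on the background level, while both Th9 arrays were far above it. On the log2 scale Th9 exceeded Th1 by 2.07 and Th17 by 1.96.

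Asb2 read 984.9 and 1195.3 in Th9, 179.4 and 128.5 in Th1, against 84.2 and 42.2 in Th17. The 3 kinds did not overlap, with Th9 highest and Th17 lowest. The log2 differences of Th9 were 2.15 from Th1 and 3.28 from Th17, and the Th17 arrays had the widest spread of a member in a kind, 6.83 ± 0.29 (SD, n = 2).

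The brighter Tent5a probe read 640.2 and 837.6 in Th9, 89.7 and 64.3 in Th1, against 142.9 and 143.4 in Th17. Here too the 3 kinds did not overlap, with Th1 lowest. The dimmer Tent5a probe read 93.9 and 96.8 in Th9, 11.6 and 9.3 in Th1, against 13.2 and 11.6 in Th17, and it too was high in Th9 alone. Its differences, 1.03 from Th1 and 1.06 from Th17, were smaller than the 2.29 and 2.03 of the brighter probe, on a scale that compresses low intensities.

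**Figure D1:**
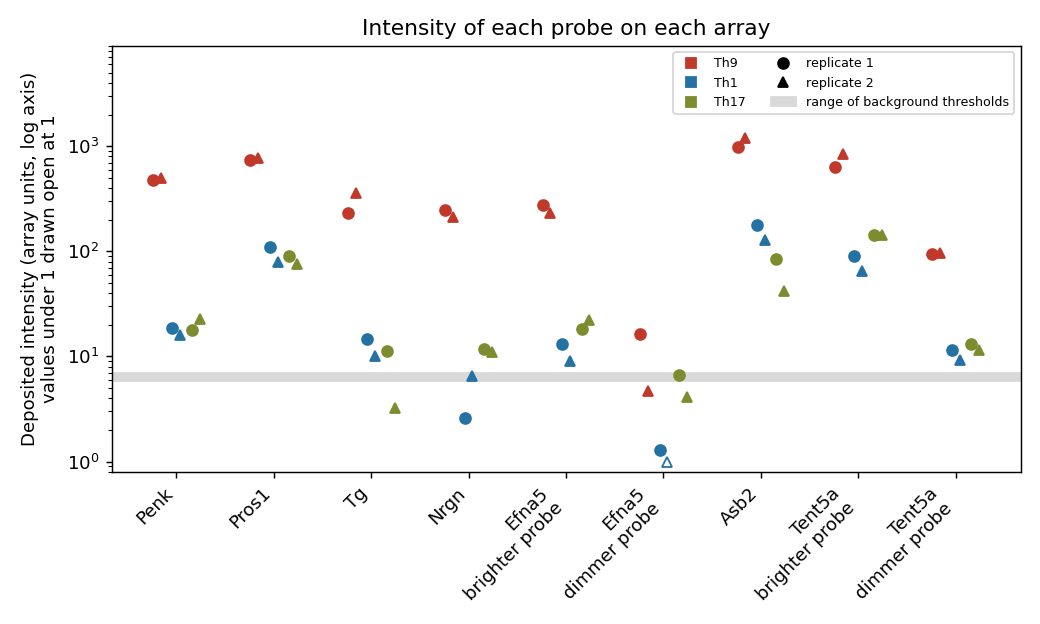
Deposited intensity (vertical log axis, array units) of the 9 probes of the 7 genes (horizontal axis) on each array, coloured by kind of cell, with circles and triangles for the 2 arrays of a kind and a grey band for the background thresholds of 5.84 to 6.95 units. Both Th9 arrays lie above the 4 other arrays for 8 of the 9 probes, the dimmer Efna5 probe being the exception.

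When the brightest kept probe stood for a gene, the differences of the 7 members ran from 2.01 to 2.66 against Th1 and from 1.92 to 3.28 against Th17. Their medians were 2.14 and 2.31, beside 0.012 and 0.006 over all 12093 named genes. Both Th9 arrays exceeded the 4 others for 7 of the 7 members and for 14.4% of all genes, a count that the choice of members fixed. Ordered by the smaller of its Th9 differences, Penk stood at rank 3 of 12093 genes, Asb2 at 5, Pros1 at 6, Tg at 7, Tent5a at 8, Nrgn at 9 and Efna5 at 10.

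Genes of the same order that are no members were Akr1c18, an enzyme that inactivates progesterone, at rank 1 (smaller difference 4.30), the alpha globin gene Hba-a1 at rank 2 (2.83) and the type 2 cytokine gene Il4 at rank 4 (2.23). Just outside the members came P2ry1, a receptor for ADP, at rank 11 (1.76), beside 1.92 for Efna5 just inside. Behind it stood Akr1c12, another aldo-keto reductase (1.69), Il24, an interleukin 10 family cytokine, Dusp6, a phosphatase that inactivates ERK kinases (1.63), and Samsn1, an adaptor of lymphocytes (1.62). Akr1c18 and Akr1c12 belong to a family of near-identical genes, so which member their probes read is uncertain.

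**Figure D2:**
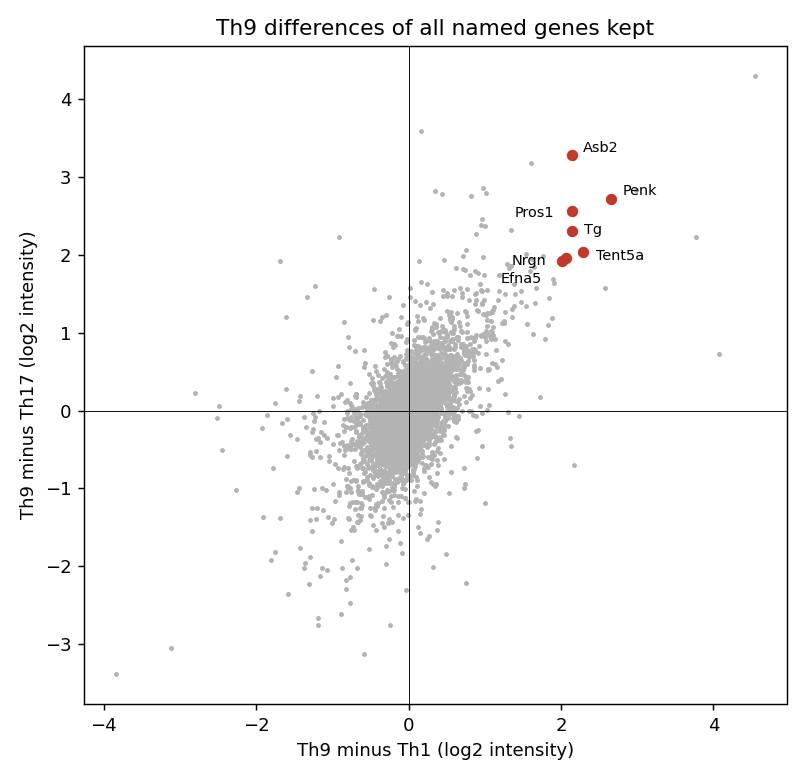
Each point is 1 of 12093 named genes, with its mean log2 difference of Th9 from Th1 on the horizontal axis and of Th9 from Th17 on the vertical axis; the 7 members are red and named. Both axes share the Th9 arrays, and the members lie at 2.01 to 2.66 across and 1.92 to 3.28 up because they were picked there.

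Likeness to Penk was measured as the Pearson correlation of the 6 normalized log2 values with those of Penk, over the 633 other genes whose values spanned at least 1 log2 unit. As a description over 6 arrays that share a kind in pairs, Nrgn (0.994), Efna5 (0.994), Pros1 (0.99), Tg (0.989) and Tent5a (0.989) ranked 8, 10, 19, 21 and 22, and Asb2 (0.939), which separates Th1 from Th17, ranked 82. Penk and the other members were picked for the same high Th9 level, so the choice itself favours these correlations and ranks. The non-members most like Penk were Tubb6, a beta tubulin (0.998), Hba-a1 (0.997), Akr1c18 (0.997), Chil3, a chitinase-like protein of myeloid cells (0.997), Il24 (0.996), Rprm, a cell cycle inhibitor induced by p53 (0.996), Itm2a, a membrane protein (0.995), and Phlda1 (0.994). Rprm read 62 and 73.4 units in Th9 and was above background on 0 of the 4 other arrays. Tubb6 read 556.5 and 619.8 in Th9, 133.3 and 123.9 in Th1, against 174.4 and 175.2 in Th17, so it was present in each kind and highest in Th9.

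The Th9 arrays of a member did not move together. Replicate 2 minus replicate 1 was -0.15 for Penk, -0.12 for Pros1, -0.35 for Nrgn, -0.39 for the brighter Efna5 probe, 0.09 for Asb2, 0.16 for the brighter Tent5a probe and 0.32 for Tg on the log2 scale. Over all kept probes the median was 0.005 and 95% lay between -0.32 and 0.33, so Nrgn and Efna5 fell just below that range. Without either Th9 array the smaller Th9 difference of each member stayed between 1.73 (Efna5 without replicate 1) and 2.71 (Penk without replicate 2).

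Th17 against Th1 is the contrast that the choice of members did not use directly, and it was tested in limma across all kept probes. Both levels had to lie below that of Th9, so this contrast is not fully independent of the choice. Asb2 and Pros1 were lower in Th17 than in Th1, whereas Penk, Tg, Nrgn, Efna5 and Tent5a did not pass. These are 2 of 9 member probes, both lower in Th17 and none higher, beside 11.8% of all 22460 kept probes called in either direction, 5.99% higher and 5.77% lower in Th17. Over the same probes 7.88% were called between Th9 and Th1 (4.09% higher and 3.79% lower in Th9) and 14.9% between Th9 and Th17 (7.45% higher and 7.5% lower), comparisons that the choice of members used. By gene they are 2 of 7, beside 14.2% of 12093 genes, and the median difference of the 7 was -0.06. With so few members the count describes these genes only.

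Asb2 was lower in Th17 by a log2 difference of -1.13 ± 0.13 (SE, n = 2 arrays per kind, limma adjusted p = 3e-06), lower on both Th17 arrays than on either Th1 array. The call ended without background correction (-1.86, adjusted p = 0.1), while with arrays scaled to their median it remained at -0.84 (adjusted p = 0.00307). Pros1 was lower by -0.42 ± 0.11 (adjusted p = 0.0143), a difference carried by the normalized values, since the deposited intensities of the 2 kinds overlap. That call ended with median scaling (-0.14, adjusted p = 0.549), with an offset of 16 (adjusted p = 0.0619), without background correction (adjusted p = 0.16). It also ended when Th1 replicate 1 was left out (adjusted p = 0.07), as it did when Th17 replicate 1 (adjusted p = 0.0584) or its partner array, Th17 replicate 2, was left out (adjusted p = 0.152).

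The brighter Tent5a probe differed by 0.26 ± 0.11 (adjusted p = 0.151, 95% interval 0.03 to 0.49). It passed in 1 alternative, median scaling (0.54, adjusted p = 0.0155), under which the all-gene median of this comparison went from 0.004 to 0.15. Relative to that shift Tent5a stood at 0.39, Pros1 at -0.29 and Asb2 at -0.99. The dimmer Tent5a probe gave -0.03 (interval -0.25 to 0.19).

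For Penk the difference was -0.06 (95% interval -0.29 to 0.17, adjusted p = 0.806), which leaves room for Th17 to be up to 0.29 log2 units lower or 0.17 higher, beside the 2.66 by which Th9 exceeded Th1. Tg differed by -0.17 (-0.42 to 0.08), Nrgn by 0.11 (-0.14 to 0.36), and Efna5 by 0.09 (-0.16 to 0.35) and 0.15 (-0.09 to 0.39) on its 2 probes. These levels were close to background, where the offset compresses differences, so a difference in the low Th1 and Th17 levels of Tg and Nrgn was not measurable here.

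**Figure D3:**
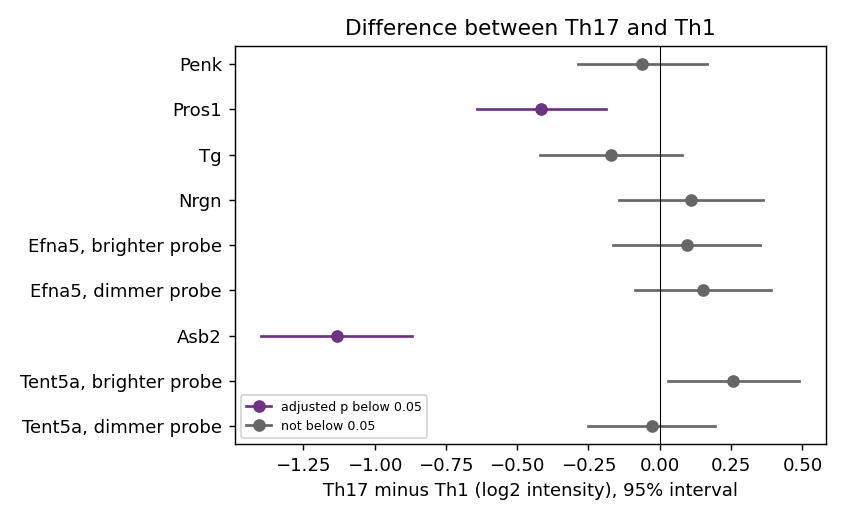
Th17 minus Th1 difference in log2 intensity (horizontal axis) for the 9 probes, with 95% intervals from the limma fit. Asb2 and Pros1 (purple) had an adjusted p below 0.05 and lie at -1.13 and -0.42, and the 7 other probes lie between -0.17 and 0.26.

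The partners of the members were taken from 7 lists of genes related to them by pathway or gene family, with 89 genes measured. The lists were chosen with earlier results of these data known, so their counts beside the all-gene shares are a description only. At an adjusted p below 0.05 in limma, 9 of the 89 were higher and 5 lower in Th9 than in Th1, beside 10.1% of all genes called in either direction (5.43% higher and 4.64% lower). Against Th17, 11 were higher and 9 lower, beside 18.2% (9.63% and 8.56%). In Th17 against Th1, 5 were higher and 5 lower, beside 14.2% (7.14% and 7.05%). With arrays scaled to their median the splits were 17 higher and 0 lower for Th9 against Th1, 7 and 8 for Th9 against Th17, and 19 and 0 for Th17 against Th1. Over all kept probes that scaling gave 2084 higher and 272 lower, 1012 and 1427, and 3700 and 378 in the same order. Without background correction 0, 2 and 0 of the 89 were called.

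In the opioid list, an enzyme that trims enkephalin intermediates was higher in Th9, as Penk was, and a link between them was not tested. Cpe, carboxypeptidase E, read 109.8 and 127.8 in Th9, -2 and 4.3 in Th1, against 1.7 and 8.4 in Th17. It was at least 2.52-fold higher in Th9 than in Th1, where 0 of 2 arrays were above background (adjusted p = 1.69e-08), and higher than in Th17 by 1.39 ± 0.11 (adjusted p = 1.67e-08), on both Th9 arrays in each case. Only 1 Th17 array was above background, so Cpe passed the filter of 2 arrays through Th9, the kind where it was high. Its tests are therefore not independent of that filter. Without background correction the differences were larger, 5.61 and 4.96, but did not pass (adjusted p = 0.153 and 0.129). Furin, the convertase of the constitutive secretory pathway, was lower in Th9, by -0.68 ± 0.13 against Th1 (adjusted p = 0.00174) and -0.74 ± 0.13 against Th17 (adjusted p = 0.000421), although its 1 other probe did not pass in either. Furin's call against Th1 ended with median scaling (adjusted p = 0.118). Pcsk4, a convertase known from germ cells, was lower than in Th17 (-0.79) on 1 of its 4 kept probes.

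Most other opioid genes were near background or did not pass. Of the 23 listed, 11 were measured, of which 1 was higher and 1 lower in Th9 than in Th1 (median 0.06), and 1 higher and 2 lower than in Th17 (median 0.01). In Th17 against Th1, 1 was higher (Pcsk4, 0.58, adjusted p = 0.0621 without Th17 replicate 1) and 0 lower. The precursor genes Pomc and Pnoc, the neuroendocrine convertase gene Pcsk1 and the receptor genes Oprm1, Oprk1 and Oprl1 were above background on 0 of 6 arrays. Oprd1, the delta receptor gene that enkephalins act on, was not analysed here.

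Of the protein S partners, 10 of 18 were measured, with 2 higher and 0 lower in Th9 than in Th1 (median 0.03) and 4 higher and 0 lower than in Th17 (median 0.14). Axl, listed as a TAM receptor kinase of the same family as Tyro3 and Mertk, read 412.8 and 625.8 in Th9. It read 177.2 and 137 in Th1, against 212.7 and 254.7 in Th17. It was higher in Th9 by 1.08 ± 0.13 over Th1 (adjusted p = 8.58e-06) and 1.03 ± 0.13 over Th17 (adjusted p = 8.34e-06), on both Th9 arrays. Its 1 other kept probe did not pass. Without background correction the differences were 1.30 and 1.23 and neither passed (adjusted p = 0.121 and 0.0904). F2r, the thrombin receptor PAR1, was higher by 0.74 and 1.27. Vkorc1, which recycles the vitamin K that protein S needs, was higher than in Th17 on all 3 of its probes (0.84 for the probe used), and Plscr1, a phospholipid scramblase, by 0.36 on 1 of 2, a call that ended without any 1 of the 4 arrays compared (adjusted p = 0.088 to 0.274). In Th17 against Th1, F2r (-0.53) and Vkorc1 (-0.55) were lower, calls that ended with median scaling, for F2r without Th17 replicate 2 (adjusted p = 0.0944), and for Vkorc1 without Th1 replicate 1 (0.0542) or Th17 replicate 1 (0.0657). Mertk and Tyro3, the TAM receptors best known to bind protein S, were each above background on 1 array and were not tested.

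Around thyroglobulin, 9 of 20 genes were measured, with 2 higher and 0 lower in Th9 against each other kind (medians 0.02 and -0.01) and 0 called in Th17 against Th1. The 2 were endoplasmic reticulum helpers that fold many secreted proteins, Hspa5, the chaperone BiP (0.66 over Th1 and 0.69 over Th17), and P4hb, protein disulfide isomerase (0.53 and 0.34). P4hb's call against Th17 ended with median scaling and without any 1 of the Th9 or Th17 arrays (adjusted p = 0.115 to 0.243), and that against Th1 without Th9 replicate 2 (0.0602) or Th1 replicate 1 (0.0514). The thyroid genes Slc5a5, Foxe1, Duox2 and Iyd were above background on 0 of 6 arrays.

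For neurogranin, 20 of 24 calmodulin pathway genes were measured. Against Th1, 0 were higher and 3 lower in Th9 (median 0.02), namely Camk4, a calmodulin-dependent kinase (-0.39), and, named after their values were seen, Camk2g (-0.45) and Ppp3cc (-0.43). In that order, the other kept probes of these genes gave 0.01, 0.11 and -0.35 against Th1 and did not pass. Against Th17, 2 were higher and 4 lower (median -0.01). The higher ones were Ppp3ca, a catalytic subunit of the phosphatase calcineurin (0.90), and Prkca, protein kinase C alpha (0.51), and the lower ones included Camk4 (-0.65) and Nfatc3, a transcription factor that calcineurin activates (-0.48). The 1 other kept probe of Prkca (-0.04) and that of Camk4 (-0.07) did not pass against Th17. In Th17 against Th1, 1 was higher and 3 lower, among the latter Ppp3ca (-0.55) and Prkca (-0.42), which ended with median scaling. Leaving out 1 array ended the calls of Camk4 against Th1 (either Th9 array or Th1 replicate 1, adjusted p = 0.0769 to 0.224) and Nfatc3 against Th17 (replicate 1 of either, 0.0516 and 0.0934). It also ended those of Prkca against Th17 (Th9 replicate 1 or Th17 replicate 2, 0.0774 and 0.0615) and in Th17 against Th1 (Th1 replicate 2 or either Th17 array, 0.0622 to 0.193).

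No partner of Efna5 passed. Of 21 other ephrins and Eph receptors 10 were measured, 0 were called by limma in any of the 3 comparisons, and their median difference was 0.10 for Th9 over Th1, 0.03 for Th9 over Th17 and 0.004 for Th17 over Th1. Their summed intensity was 64 to 141.4 units over 21 genes on an array, so each lay near background.

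In the Asb2 list, which holds the other ASB genes, subunits of the ligase and reported targets, 15 of 27 were measured, with 3 higher and 1 lower in Th9 than in Th1 (median 0.12) and 2 higher and 2 lower than in Th17 (median 0.04). The cytokine receptor kinase Jak2 was higher by 0.85 and 0.52, and its other probe passed in both, although the call against Th17 ended without Th9 replicate 2 (adjusted p = 0.0574) or Th17 replicate 1 (0.102). Jak3, the kinase of the common gamma chain, was higher than in Th1 (0.44), a call that ended without Th9 replicate 1, Th9 replicate 2 or Th1 replicate 2 (adjusted p = 0.127, 0.167 and 0.313). Eloc, the elongin C subunit that binds the SOCS box, was higher by 0.37 and 0.38 (named after its values were seen). Asb13 was lower by -0.57 and -0.59, and with median scaling the call against Th1 ended (-0.28, adjusted p = 0.262). Flna, a filamin and so a target of Asb2, was lower than in Th17 (-0.43, a call that ended without Th9 replicate 2 or Th17 replicate 2, adjusted p = 0.242 and 0.197) and differed from Th1 by 0.20 without passing. In Th17 against Th1, 2 were higher, Flna (0.63) and Jak3 (0.61), and 0 lower.

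Tent5c, the paralogue of Tent5a known from B cells, was highest in Th17. It read 25.6 and 32.5 in Th9, 27.8 and 51.4 in Th1, against 213.9 and 188.9 in Th17. Between Th9 and Th1 it differed by -0.35 without passing in limma (adjusted p = 0.135). It was lower in Th9 than in Th17 by -1.45 ± 0.14 (adjusted p = 1.67e-07) and higher in Th17 than in Th1 by 1.09 ± 0.14 (adjusted p = 1.16e-05), on both arrays of each kind. Without background correction these stood at -2.74 and 1.87 and did not pass (adjusted p = 0.0592 and 0.151). Of the 17 poly(A) tail genes 14 were measured, and the only other call was the deadenylase gene Cnot6, higher in Th9 than in Th1 by 0.40 at a level near background, a call that ended without any 1 of 5 arrays (adjusted p = 0.053 to 0.205). The list medians were -0.005, -0.0004 and 0.09 in the 3 comparisons.

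**Figure D4:**
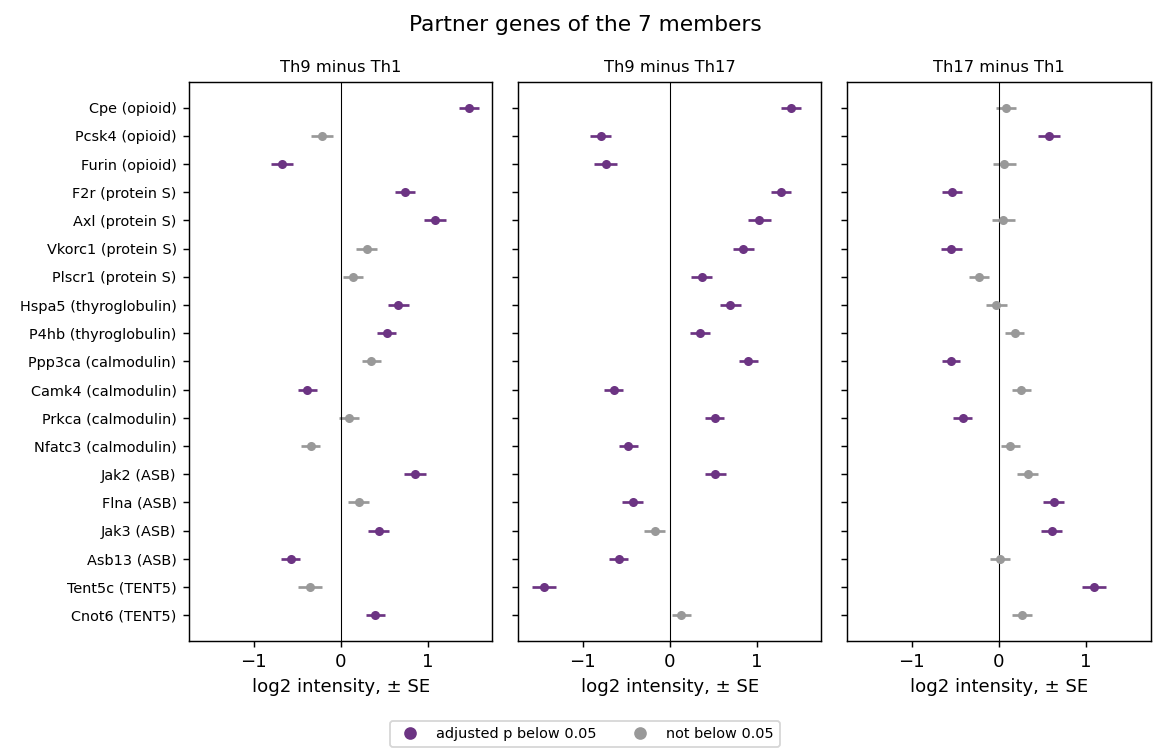
Log2 differences with their standard errors (horizontal axes) for 19 partner genes in 3 comparisons, 1 panel each, with the list of each gene in brackets. Purple points had an adjusted p below 0.05; Cpe (1.47 and 1.39), Axl (1.08 and 1.03) and F2r (0.74 and 1.27) were higher in Th9 in both Th9 panels, and Tent5c was highest in Th17.

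Markers of other cells moved with the members in part, and their part in the result was not tested. Each summed intensity covers all listed genes on the array, measured or not, with values below 0 counted as 0. Of 5 measured erythroid markers 2 were higher in Th9 than in each other kind (Hba-a1 and Hbb-b1), with summed intensities of 623.9 to 686.1 in Th9, 49.5 to 52.7 in Th1 and 81 to 159.5 in Th17, and Alas2 was above background on 0 arrays. Of 6 B and plasma cell markers, 3 were higher than in Th1 and 4 higher than in Th17, with sums of 5507 to 6817.8 in Th9, 2698.8 to 3281.8 in Th1 and 2652.6 to 3113.7 in Th17. Xbp1, a transcription factor of secretory cells, was the largest part of every sum. It read 3061.4 and 3743.7 in Th9, 1565.3 and 1222.6 in Th1, against 2861.9 and 2424.3 in Th17. Against Th1, Xbp1 (1.06), Cd74 (1.01) and Cd79b (0.45) were higher, whereas Igkc (0.16), Jchain (-0.14) and Ebf1 (-0.16) did not pass. In Th17, 3 of the 6 were lower than in Th1, among them Igkc, an immunoglobulin light chain. Igkc read 1177.5 and 1600.5 in Th9, 1089.3 and 952.3 in Th1, against 61.9 and 65.9 in Th17. Ms4a1 and Sdc1 were each above background on 1 array and were not tested. Of 3 granulocyte markers 1 was higher (Chil3), with sums of 84.8 to 104.1, 11.1 to 23.1 and 18.9 to 27.9, and S100a8, S100a9 and Ngp were above background on 0 arrays.

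Of 3 neuronal markers Syt1, a synaptic vesicle protein, was higher, reading 48.8 and 61.9 in Th9 with 0 of the 4 other arrays above background. The other kept probe of Syt1 did not pass against Th1 (0.09) or Th17 (0.02). Snap25 was above background on 0 arrays. The list's sums were 69.7 to 76.3, 4.2 to 19.6 and 18.9 to 29.8. Among 4 macrophage markers Adgre1 was higher (34.1 and 21.3 in Th9, at background elsewhere), with sums of 184.7 to 229.6, 130.8 to 195.7 and 207.7 to 209.2. Most of each sum was Lyz2, which differed by -0.20 from Th1 and -0.11 from Th17 without passing. The other kept Lyz2 probe was lower in Th9 than in Th1 (-0.54). Cd68 and Csf1r did not pass either, and C1qb, Fcgr1, Cd14 and Vcam1 were above background on 0 arrays. Platelets are known in humans to carry Nrgn mRNA, and 0 of 4 platelet markers were called, with sums of 35.7 to 44.8, 23.1 to 24.5 and 14.3 to 28.1. Pf4 was above background on both Th9 arrays (11.5 and 11.9) and on 0 Th1 and 0 Th17 arrays. Ppbp was above it on both Th9 arrays (15.1 and 9.5), 1 Th1 and 0 Th17 arrays. Gp9 was above it in every kind, and Itga2b on 1 Th9 and 1 Th1 array. The offset compresses differences at such levels, and a platelet part in the Nrgn difference was not tested. For thyroid, 0 of 3 were called and the sums overlapped at 13 to 26.6 units over all arrays. Stroma and endothelium had 0 called against Th1 and 1 lower in Th9 than in Th17 (Pecam1), with Col1a1 and Col3a1 above background on 0 arrays, and 0 of 2 dendritic cell markers were called. The CD8 T cell marker Cd8b1 was higher in Th9 than in Th17 by 0.96 (adjusted p = 3.39e-06) and differed from Th1 by -0.15 without passing, and its 2 other kept probes did not pass against Th17.

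Regulatory T cells are known to express Penk. Foxp3, the factor that defines them, read 367.5 and 365.8 in Th9, 227.3 and 209 in Th1, against 390.8 and 360.5 in Th17, so its Th9 and Th17 arrays overlapped, and the probe did not pass against either kind, while 1 of its 2 other kept probes was higher in Th9 than in Th1 (0.53). Of 9 regulatory T cell markers measured, 6 were higher in Th9 than in Th1 and 5 higher than in Th17. Il2ra, Gpr83, Itgae, Tnfrsf18 and Tnfrsf4 were higher than in both, and Nrp1 than in Th1 only (-0.07 against Th17). Ikzf2 and Ctla4 (-0.04 and -0.23) did not pass against either kind. Summed intensities were 8349 to 9518.2 in Th9, 3507.1 to 4048.2 in Th1 and 4291.9 to 4414.8 in Th17. Most of the Th9 sum came from Tnfrsf18 (3060.8 and 3654) and Tnfrsf4 (2940.8 and 2945.2). A regulatory T cell part in the Penk difference was not tested.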

How the data were processed

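Illumina bead arrays were hybridised with biotin-labelled cRNA made from total RNA, per the labels. The deposited value table holds intensity per probe on a linear scale, as read from the values, and the authors' background and scaling steps are not given in the sources used here. A further table, of 12 columns that could be tied to none of the samples by name, was left out. Depth does not apply to arrays, and the number of arrays limits the precision.

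Intensities were background-corrected with normexp (offset 50), quantile-normalized and taken to log2. A probe was above background when it passed a noise threshold, 1.645 times the root mean square of the negative values on that array, and 22460 of 45281 probes above it on at least 2 arrays were kept. Probes were named through gene identifier (28620), accession (2637), symbol (2128) or synonym (2343), 56 as given, and 9497 had no gene. For ranks and lists a gene was represented by its kept probe of highest average level.

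One linear model over the 6 arrays was fitted with limma 3.58.1 in R 4.3.3, with Benjamini-Hochberg adjustment over all kept probes in each comparison, at 0.05 (3 residual and 15.7 prior degrees of freedom). Intervals are at 95%. The fit was tested on simulated data. The members and lists were chosen with earlier results of these data known. Named partners were, by rule, up to 4 called genes of each list with the largest difference. Genes with provisional symbols were passed over in the ranks of non-members. Alternatives changed the background correction, offset, scaling, filter, probe summary, arrays fitted and variance model, added a block for the repeat, and left out each array in turn.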

Additional observations from a re-analysis of the deposited data

How the results depend on the processing

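Counts are given in the order Th9 against Th1, then Th9 against Th17, then Th17 against Th1. With no background correction and no offset (values under 1 set to 1), limma called 0 member probes in Th17 against Th1, and over all probes 261, 749 and 387, with 0, 2 and 0 partner genes. With an offset of 16 they were 1 member probe, 964, 2228 and 1531 probes, and 7, 11 and 6 partners. The main counts were 2 member probes, 1770, 3357 and 2642 probes, and 14, 20 and 10 partners. With arrays scaled to their median, Th17 against Th1 gave 4078 probes and 19 partners. That scaling turned the split from 918 higher and 852 lower to 2084 and 272 in Th9 against Th1, and from 1345 and 1297 to 3700 and 378 in Th17 against Th1. Leaving out 1 array at a time gave 1 to 2 member probes, 1021 to 1728, 2033 to 3912 and 1384 to 2540 probes, and 8 to 13, 13 to 21 and 5 to 10 partners. The median over members of the smaller Th9 difference was 2.14, and 3.701 without background correction, 2.56 with an offset of 16 and 2.08 to 2.19 without 1 array.

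Of 66 single differences tested, 38 were called. Of these, 36 lost the call without background correction and 18 under another alternative, 11 of them with median scaling. A further 11 passed under some alternative, and 0 called ones changed sign. The cause was not tested. A replicate block on the word repeat gave 2 member probes and 1712, 3271 and 2578 probes, and it changed 0 of the 66 calls. The titles do not say that a repeat is shared between kinds, and the deviations of the arrays correlated at -0.022, -0.028 and 0.019, so the block is no pairing by design.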
